A study of Mus musculus with 12 samples.

Results

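The 9 genes described here make PIWI-interacting RNAs (piRNAs) or load them onto PIWI proteins in the mouse germ line: Piwil1, Piwil2, Mov10l1, Asz1, Pld6, Tdrkh, Henmt1, Exd1 and Fkbp6. They were taken by symbol from a table of 55487 Ensembl genes, in which each had 1 row. All 9 were among the 22384 genes tested, those with 3 or more libraries of 10 or more normalized counts each. RNA was sequenced from gonocytes, the male germ cells that precede spermatogonia, isolated from mice carrying the Mvh-Venus reporter. Mvh is the protein of Ddx4, so the reporter marks germ cells. There were 3 libraries at each of E13.5 and E16.5 (embryonic days), P0 (birth) and P3 (postnatal day 3).

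Titles and source names call all 12 samples WT, whereas the genotype tag reads Morc1 (+/-) at E13.5 and P0 and Morc1 (-/-) at E16.5 and P3. Stage and tag cannot be told apart in a comparison that crosses the tag, and only P0 with E13.5 and P3 with E16.5 stay within 1 tag. Morc1, the gene the series is named for, had 1621 to 1830 normalized counts at E13.5, 28328 to 32917 at E16.5, 7280 to 7708 at P0 and 10584 to 11129 at P3. The stages tagged (-/-) were not those with the fewest Morc1 counts. Gene-level counts do not give the genotype, and which label is right was not tested. Nothing in the labels says whether the 3 samples of a stage came from separate animals, or whether animals were pooled. The p-values then measure only the spread between these samples, which may be technical.

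A piRNA is a small RNA that guides a PIWI protein to transposon transcripts by base pairing. Long single-stranded precursors are bound by an RNA helicase and cut at the mitochondrial surface, and the fragments are taken up by PIWI proteins, trimmed and methylated at their 3′ ends. In male mice the pathway is known for silencing retrotransposons during the fetal period, when germ cell DNA is demethylated and then methylated anew, and again during meiosis. Its fetal PIWI proteins are PIWIL2 (MILI), which slices transcripts in the cytoplasm, and PIWIL4 (MIWI2), which acts in the nucleus. PIWIL1 (MIWI) is known mainly from spermatocytes and spermatids.

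The 9 genes lie on 7 chromosomes, and all are annotated as protein coding. In GRCm38, by the GENCODE M21 annotation, Piwil2 (ENSMUSG00000033644) spans 70372477 to 70429383 on the minus strand of chromosome 14. Piwil1 (ENSMUSG00000029423) spans 128702524 to 128755474 on the plus strand of chromosome 5, which also carries Fkbp6 (ENSMUSG00000040013) at 135291704 to 135350044 on the minus strand. Mov10l1 (ENSMUSG00000015365) lies on chromosome 15 at 88982909 to 89055152 on the plus strand. Asz1 (ENSMUSG00000010796) lies on chromosome 6 at 18050964 to 18109061, Pld6 (ENSMUSG00000043648) on chromosome 11 at 59783897 to 59787645, and Exd1 (ENSMUSG00000048647) on chromosome 2 at 119516505 to 119547627, all on the minus strand. Tdrkh (ENSMUSG00000041912) and Henmt1 (ENSMUSG00000045662) are both on the plus strand of chromosome 3, at 94413273 to 94434668 and 108939873 to 108960774. Of the exon bases of Tdrkh, 36.7% are shared with Oaz3 on the opposite strand, and of those of Henmt1 14.7% are shared with Gm9857. The strand setting of the counting is not given in the sources used here, so reads of these overlaps cannot be assigned with certainty. Oaz3 itself had 9.50 to 61.6 normalized counts in the 12 libraries and Gm9857 at most 31.0. No other member shared exon bases with a second gene, and at most 1.37% of the 50-base words of their transcripts occurred in transcripts of other genes.

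RefSeq gave promoter sequence (GRCm38.p6, 250 bases before to 50 after a start site) for 8 of the 9 genes, Piwil2 being the other. The letters CACGTG, the palindromic E-box bound by many basic helix-loop-helix proteins, were found in the windows of 4 of these 8 genes and in 7.15% of all 32851 windows in the table. There were 2 matches in Piwil1, 2 in Fkbp6, whose windows overlap and share both, 1 in Mov10l1 and 1 in the second of the windows of Pld6. Stretches of these 4 windows before the start site, outside every annotated exon, are shown because they hold the shared letters, which are in capitals:
Piwil1: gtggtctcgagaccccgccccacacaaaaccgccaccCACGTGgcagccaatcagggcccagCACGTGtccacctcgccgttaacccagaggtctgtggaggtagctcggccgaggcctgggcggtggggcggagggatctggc
Fkbp6: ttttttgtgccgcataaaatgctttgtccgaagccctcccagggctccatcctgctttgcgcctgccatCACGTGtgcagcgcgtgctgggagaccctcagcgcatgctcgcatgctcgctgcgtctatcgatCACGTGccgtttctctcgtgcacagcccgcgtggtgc
Mov10l1: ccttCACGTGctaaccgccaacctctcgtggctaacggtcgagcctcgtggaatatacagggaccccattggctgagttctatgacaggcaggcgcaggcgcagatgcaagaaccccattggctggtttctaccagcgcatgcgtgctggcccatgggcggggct
Pld6: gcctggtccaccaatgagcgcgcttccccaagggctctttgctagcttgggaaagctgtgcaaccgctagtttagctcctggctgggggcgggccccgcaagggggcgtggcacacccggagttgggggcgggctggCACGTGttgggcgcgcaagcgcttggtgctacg
They lie at chr5:128736030-128736173 on the plus strand, chr5:135350045-135350214 on the minus strand, chr15:88982744-88982908 on the plus strand and chr11:59787658-59787827 on the minus strand. In Piwil1 the 2 matches began at -179 and -154 from the RefSeq start site, in the first window of Fkbp6 at -101 and -37, in Mov10l1 at -246 and in Pld6 at -33. The RefSeq start site of Piwil1, 128736246, lies inside the GENCODE span of the gene, which begins at 128702524. The stretch shown for Piwil1 thus lies within the gene as GENCODE annotates it. An E2F-type motif, GGCGGGA on either strand, was in no window of the 8 genes and in 11.3% of all windows. The MYB-type core AACTG, on either strand, was in windows of 3 of the 8 (Piwil1, Tdrkh and Fkbp6) and in 44.8% of all windows. The promoters were rich in CpG: the ratio of observed to expected CpG was 0.535 to 0.994 in the members' windows, against a median of 0.384 over all windows. The letters CGCG were in windows of 7 of the 8 genes and in 38.0% of all windows. CACGTG also holds a CpG, and the shares over all windows were not matched for CpG. Those shares count windows, whereas members were counted as genes, some with more than 1 window. These matches describe letters in the windows only.

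Reads assigned to genes numbered 40946616 to 51533747 per library. The deposited values are counts divided by 1 size factor per library, called normalized counts here, and libraries are named by stage and the number 1, 3 or 4 in the column heads. Germ cell markers (Ddx4, Dazl, Mael, Sycp3 and Dnd1) were detected at every stage. Under the deposited scaling their summed level was 218436 to 252865 at E13.5, E16.5 and P3 but 128112 to 135839 at P0. All marker sums were formed under that scaling only, so their differences between P0 and other stages rest on its size factors. The 5 germ cell markers did not move together: Ddx4 (22151 to 24320) and Dnd1 (3545 to 4313) were lowest at P0, but Dazl was lowest at E16.5 (33424 to 39372), and Mael and Sycp3 were lowest at E13.5. Ddx4 and Mael are also pathway genes. Marker sums of other testis cells were far lower and moved with stage. The 5 Sertoli markers summed to 2695 to 4946 at P0 and to at most 2390 elsewhere, and the 4 peritubular markers to 3695 to 4157 at P0 and at most 1867 elsewhere. The 5 Leydig markers summed to 7681 in E16.5 library 4 and 6106 in P0 library 1, against 179.2 to 3102 in the other 10. The 6 macrophage or endothelial markers summed to 4413 to 5150 at E13.5, of which Pecam1 alone made 4326 to 5074. The other 5 had fewer counts at E13.5 than at E16.5, such as Cd68 with 35.9 to 62.0 against 862.9 to 1049. The 5 blood markers were highest at E16.5 and P0 (1599 to 2532). Alas2 alone made 1373 to 1549 of this at E16.5 and 1248 to 1397 at P0. The highest value of a globin gene was 562.9, of Hbb-bs at P0. At P3, Insl3 and Adgre1 were at 0 in all libraries. The part of these cells in the results below was not tested, and in such bulk samples fewer cells of a type and less RNA per cell cannot be told apart. The 2 libraries with high Leydig markers were left out 1 at a time only, never together. Each of these fits called 8 of 9 members between E13.5 and E16.5 and 9 of 9 between E16.5 and P0. P0 library 3, with a Leydig sum of 3102, stayed in both, so they do not test the part of Leydig cells. The Sertoli and peritubular sums were high in all 3 P0 libraries, so no fit that leaves out 1 library bears on them.

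All 9 genes were expressed at every stage, and 8 had their highest mean at E16.5. Pld6, the exception, was highest at P3 under the deposited scaling, with P3 and E16.5 not told apart. Tdrkh, counted among the 8, was not told apart between E16.5 and E13.5 under that scaling (log2 difference 0.09, limma adjusted p 0.278). Among all genes tested, 18.3% both differed among stages and had their highest mean at E16.5. By limma's F-test across stages, all 9 passed an adjusted p (Benjamini-Hochberg) of 0.05, and so did 95.2% of all genes tested. Together the 9 genes took 0.120% ± 0.000981 of the E13.5 reads assigned to genes (SD, n = 3), and the share was 0.471% ± 0.0143 at E16.5. In the P0 libraries it was 0.316% ± 0.00201, and in those of P3 0.290% ± 0.00278. The libraries of no 2 stages overlapped in this share, which sets all library totals equal. Under the deposited scaling P0 and P3 stood in the reverse order, with summed levels per kb of 30188 ± 1329 and 49936 ± 1445. The plot of normalized counts by stage shows each gene's libraries.

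**Figure D1:**
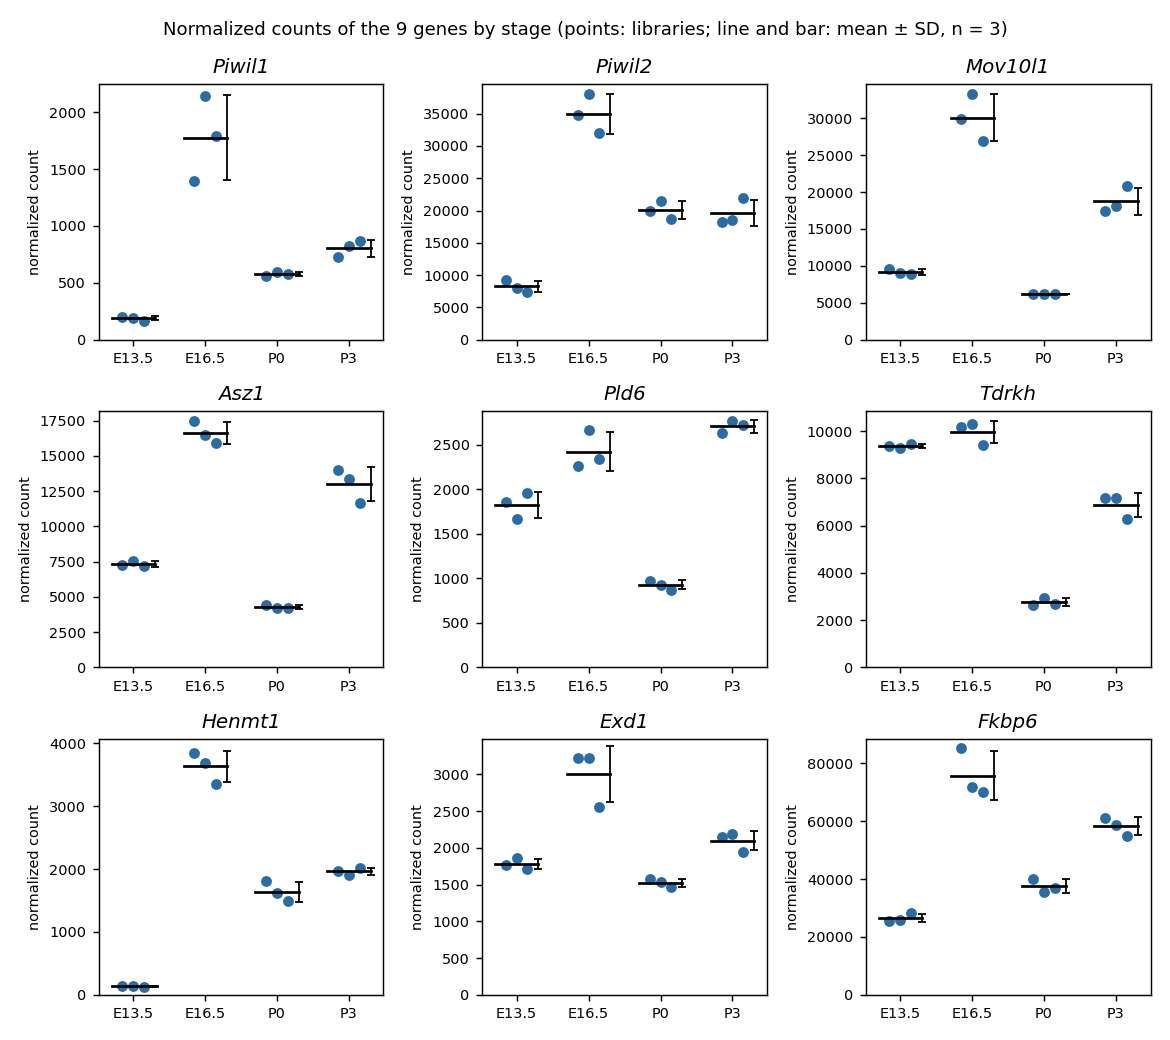
Normalized counts (vertical axes, linear, from 0) of the 9 genes in the 3 libraries of each stage (horizontal axes). Points are libraries, lines are means and bars are SDs; the E16.5 mean is the highest for 8 genes, with overlap with E13.5 in Tdrkh, while the P3 libraries of Pld6, at 2624 to 2769, overlap with its E16.5 libraries.

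Levels of different genes were compared per kilobase of exon. At E16.5, Fkbp6 was the most abundant, at 43228 ± 4813 normalized counts per kb (SD, n = 3). Mov10l1 (7187 ± 763), Piwil2 (6607 ± 584) and Asz1 (5877 ± 282) formed a middle group on that scale. Tdrkh (1623), Pld6 (1378) and Henmt1 (1357) were lower, and Exd1 (497.2) and Piwil1 (407.7) lowest. Fkbp6 made up 62.0% ± 1.82 of the summed per-kb level of the 9 genes at E13.5 and 71.0% ± 1.55 at P0. The level of Tdrkh per kb is the least certain, since its overlap with Oaz3 counts in its length.

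Piwil2 encodes the PIWI protein MILI. Libraries 1, 3 and 4 of E13.5 held 9208, 8077 and 7415 of its normalized counts, and those of E16.5 held 34744, 38108 and 31938. The P0 libraries had 19944, 21542 and 18734, and the P3 libraries 18289, 18585 and 21918. The E13.5 libraries were thus lowest and the E16.5 libraries highest, with no overlap, while P0 and P3 overlapped. Piwil2 rose 4.24-fold from E13.5 to E16.5, or by 2.09 ± 0.0944 (SE) on the log2 scale (limma adjusted p 3.17e-12). It fell by 0.80 on the log2 scale from E16.5 to P0 (adjusted p 1.61e-06), but with equal library totals that difference was -0.13 (adjusted p 0.183). P3 and P0 did not differ beyond the spread (log2 fold change -0.04, 95% interval -0.24 to 0.16, adjusted p 0.729). With each of the other 3 scalings Piwil2 was called lower at P3: -0.21 with TMM factors (adjusted p 0.0362), -0.48 with median-of-ratios factors (adjusted p 0.000161) and -0.88 with equal totals (adjusted p 1.68e-07). P3 was 2.38-fold above E13.5 (adjusted p 3.91e-09).

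Piwil1 encodes MIWI, and had the lowest level per kb of the 9 genes in all 4 stage means. Its libraries held 202.7, 192.6 and 167.2 normalized counts at E13.5 and 1394, 2145 and 1791 at E16.5. At P0 they held 561.3, 593.9 and 573.9, and at P3 723.9, 822.0 and 865.4. No stages overlapped, and the spread was widest at E16.5. The rise to E16.5 was 9.48-fold, or 3.22 ± 0.137 (SE) on the log2 scale (limma adjusted p 1.48e-12), and the fall to P0 was by 1.60 (adjusted p 3.17e-08). On that scale P3 exceeded P0 by 0.48 (adjusted p 0.00478), which was 0.30 with TMM factors (adjusted p 0.0529) and reversed with equal totals, at -0.36 (adjusted p 0.0321).

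Mov10l1 encodes the helicase that binds piRNA precursors. Its libraries held 9615, 8964 and 8916 normalized counts at E13.5 and 29927, 33323 and 26942 at E16.5. The P0 libraries held 6131, 6213 and 6220, and the P3 libraries 17412, 18047 and 20863. The 4 stages did not overlap, and the 3 P0 libraries were the lowest and lay closest together. Mov10l1 rose 3.28-fold to E16.5 (log2 fold change 1.71, SE 0.0823, limma adjusted p 6.97e-12), fell to a level 4.86-fold lower at P0 (-2.27, adjusted p 1.82e-12) and rose 3.03-fold from there to P3 (1.60, adjusted p 2.60e-11). It had the largest fall of the 9 genes between E16.5 and P0. Its P0 level was below that of E13.5 (log2 difference -0.57, adjusted p 6.56e-06), but the direction turned with equal totals, to 0.60 (adjusted p 1.75e-06).

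Asz1, Pld6 and Tdrkh encode proteins of the outer mitochondrial membrane: ASZ1 (GASZ) is a scaffold of the germ granule there, PLD6 (Zucchini) is the nuclease linked to piRNA 5′ ends, and TDRKH is a Tudor protein that binds PIWI proteins and the trimming enzyme PNLDC1. All 3 had their lowest libraries at P0 under the deposited scaling. With equal totals only Tdrkh had its lowest mean there. Asz1 and Pld6 were then higher at P0 than at E13.5, by 0.39 and 0.19 on the log2 scale (limma adjusted p 1.2e-05 and 0.0388). Asz1 held 7156 to 7532 normalized counts at E13.5, 15916 to 17490 at E16.5, 4177 to 4410 at P0 and 11681 to 13996 at P3. It rose 2.27-fold to E16.5, was 3.90-fold lower at P0 and 3.05-fold higher at P3 than at P0 (largest limma adjusted p 1.37e-10, SE 0.0718 on the log2 scale).

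Pld6 differed least of the called genes between E13.5 and E16.5. It held 1850, 1667 and 1953 normalized counts at E13.5, 2261, 2667 and 2335 at E16.5, 973, 927 and 873 at P0, and 2624, 2769 and 2720 at P3. It rose 1.33-fold to E16.5 (log2 fold change 0.41, SE 0.0854, limma adjusted p 0.000341), was 2.62-fold lower at P0 and 2.93-fold higher again at P3 (adjusted p 5.55e-10 and 5.99e-11). P3 and E16.5 overlapped, and their log2 difference of 0.16 had a 95% interval of -0.02 to 0.34 (adjusted p 0.0991). Without E16.5 library 3 it was 0.24 (adjusted p 0.0256), and with median-of-ratios factors it was -0.02.

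Tdrkh was the only member that did not pass the test between E13.5 and E16.5 under the deposited scaling. It held 9385, 9311 and 9460 normalized counts at E13.5 and 10176, 10317 and 9416 at E16.5, ranges that overlapped. The log2 difference was 0.09, with a 95% interval of -0.07 to 0.24 (limma adjusted p 0.278); with TMM, median-of-ratios and equal-total factors it was 0.17, 0.31 and 0.59, each past the threshold. The P0 libraries had 2618, 2943 and 2696 and the P3 libraries 7179, 7174 and 6295, so P0 was lowest with no overlap. Tdrkh fell to a 3.62-fold lower level at P0 (-1.86 on the log2 scale from E16.5, adjusted p 3.12e-12) and rose 2.50-fold to P3 (1.32, adjusted p 4.93e-11). It was the only member lower at P3 than at E13.5 (-0.45, adjusted p 2.92e-05), a difference of -0.12 with equal totals (adjusted p 0.111).

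Henmt1 encodes the methyltransferase that caps piRNA 3′ ends with a 2′-O-methyl group, and it showed the largest rise. Its libraries held 135.1, 138.2 and 126.2 normalized counts at E13.5 (120 to 128 reads) and 3849, 3685 and 3355 at E16.5. They held 1805, 1613 and 1493 at P0 and 1969, 1903 and 2019 at P3. Henmt1 rose 27.3-fold to E16.5, or by 4.76 ± 0.0904 (SE) on the log2 scale (limma adjusted p 3.22e-16), and was 12.3-fold above E13.5 at P0 and 14.7-fold at P3. The fall from E16.5 to P0 was by 1.15 on the log2 scale (adjusted p 1.12e-08). P3 exceeded P0 by 0.27 (adjusted p 0.0135), but this was lost without P0 library 4 (0.20, adjusted p 0.0727) and turned with median-of-ratios factors (-0.17) and equal totals (-0.57).

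Exd1 and Fkbp6 are linked to the loading of PIWI proteins: EXD1 is an RNA-binding partner of TDRD12, and FKBP6 is a co-chaperone of HSP90. Fkbp6 held 25446, 26035 and 28165 normalized counts at E13.5, 85475, 71747 and 70113 at E16.5, 40106, 35602 and 37015 at P0, and 61115, 58631 and 54961 at P3. No stages overlapped. Fkbp6 rose 2.85-fold to E16.5 (log2 fold change 1.51, SE 0.0820, limma adjusted p 3.33e-11), was 2.02-fold lower at P0 (adjusted p 1.74e-08) and then rose 1.55-fold to P3 (0.63, adjusted p 2.60e-06). With equal totals the last difference was -0.21 (adjusted p 0.00559).

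Exd1 varied over the narrowest range of the 9 genes. It held 1714 to 1857 normalized counts at E13.5, 2560 to 3229 at E16.5, 1467 to 1574 at P0 and 1951 to 2193 at P3, with no overlap between stages. Its log2 fold changes over the 3 intervals were 0.75, -0.97 and 0.46 (SE 0.0911, limma adjusted p 1.03e-06, 1.01e-07 and 0.000236), the last being -0.38 with equal totals. P0 lay below E13.5 by -0.22 (adjusted p 0.0316) and P3 above it by 0.24 (adjusted p 0.0291). The first missed the threshold without E13.5 library 1 or 3 or P0 library 3 or 4 (adjusted p 0.0577 to 0.106) and was -0.02 with TMM factors. The second missed it without E13.5 library 1 or 4 or P3 library 1 or 3 (adjusted p 0.0657 to 0.102).

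Between E13.5 and E16.5, 8 of the 9 genes rose and none fell, where 80.1% of all genes tested were called, 45.5% higher and 34.6% lower (limma, adjusted p under 0.05). Of the 8, 6 rose at least 2-fold, as 59.7% of all genes changed in either direction. The median log2 fold change of the 9 was 1.51, with a range of 0.09 to 4.76, against a median of 0.31 over all genes tested. Between E16.5 and P0 all 9 fell, where 61% of genes were called, 33.4% lower and 27.6% higher. Of the 9, 7 fell at least 2-fold under the deposited scaling, against 34% of all genes changed by that much. Their median was -1.39, with a range of -2.27 to -0.80, against -0.01 over all genes. With equal totals 8 of 9 were called lower, Piwil2 being the exception. Mov10l1 (-1.61), Asz1 (-1.30) and Tdrkh (-1.19) then still fell at least 2-fold. Piwil1 (-0.94), Pld6 (-0.72), Henmt1 (-0.49) and Fkbp6 (-0.345) fell by less. Henmt1 (-0.89) and Fkbp6 (-0.75) also fell by less than 2-fold with median-of-ratios factors.

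Between P0 and P3, 8 of the 9 were called higher, all but Piwil2, where 76.5% of genes were called, 40.1% higher and 36.4% lower. The median was 0.63, against 0.05 over all genes. Mov10l1, Asz1, Pld6 and Tdrkh rose at least 2-fold under the deposited scaling, a size that 54.7% of all genes reached in either direction. These 4 were higher at P3 under all 4 scalings. With equal totals they rose by less than 2-fold, from 0.48 (Tdrkh) to 0.76 (Asz1) on the log2 scale. With equal totals only these 4 were called higher and the other 5 were called lower.

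**Figure D2:**
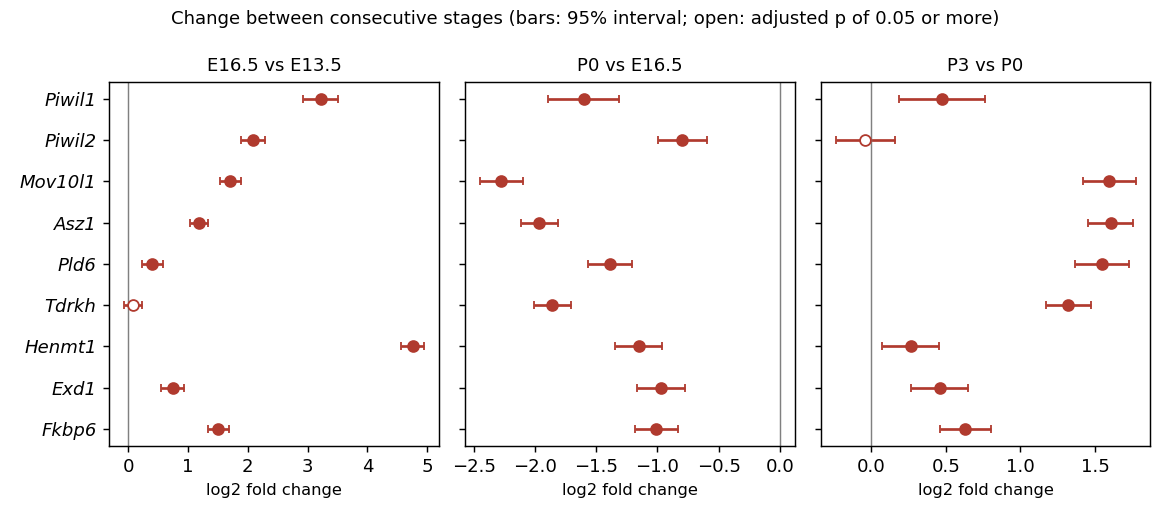
Log2 fold changes (horizontal axes) of the 9 genes between consecutive stages on log2(normalized count + 1), with 95% intervals; open points did not pass the threshold. Henmt1 has the largest rise at E16.5 (4.76), all 9 points lie below 0 at P0, and Mov10l1, Asz1, Pld6 and Tdrkh lie between 1.32 and 1.60 at P3.

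Within the same genotype tag, P0 against E13.5 divided the genes. Piwil1, Piwil2, Henmt1 and Fkbp6 were higher at P0, and Mov10l1, Asz1, Pld6, Tdrkh and Exd1 were lower, where 86.1% of genes were called, 45.7% higher and 40.5% lower. This division depended on the scaling: with equal totals 8 members were called higher and 1, Tdrkh, lower, and Exd1 was also higher with median-of-ratios factors (0.26). The extremes were Henmt1, at a log2 fold change of 3.61, and Tdrkh, at -1.77. These 2 and Piwil1 and Piwil2 differed at least 2-fold, as did 70.5% of all genes. Between E16.5 and P3, 8 of the 9 were lower at P3, all but Pld6, where 69.5% of genes were called, 35.2% lower and 34.2% higher. That fall was largest for Piwil1 (-1.13), the 1 member past 2-fold, against 45.3% of all genes, and smallest for Asz1 (-0.36), both past the threshold. P3 against E13.5, which crosses the tag, gave 8 genes higher and 1 lower, where 70.4% of genes were called, 39.2% higher and 31.2% lower. Of the 9, 5 rose at least 2-fold, against 45.4% of all genes changed by that much.

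The scaling of the P0 libraries decided part of these directions. Equal totals moved the median log2 difference over the tested genes by 0.65 at P0 against E16.5, by -0.82 at P3 against P0 and by 1.13 at P0 against E13.5. Median-of-ratios factors moved it by 0.25, -0.43 and 0.46. A scaling shifts all genes of a library alike, so a difference taken relative to the median gene is nearly the same under any of them and does not test a direction. On that relative scale 9 of 9 genes were below at P0 against E16.5, and 8 of 9 were above at P3 against P0, with Piwil2 at -0.09. At P0 against E13.5, Mov10l1 (-0.76), Asz1 (-0.98), Pld6 (-1.18), Tdrkh (-1.97) and Exd1 (-0.42) were below and the other 4 above.

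**Figure D3:**
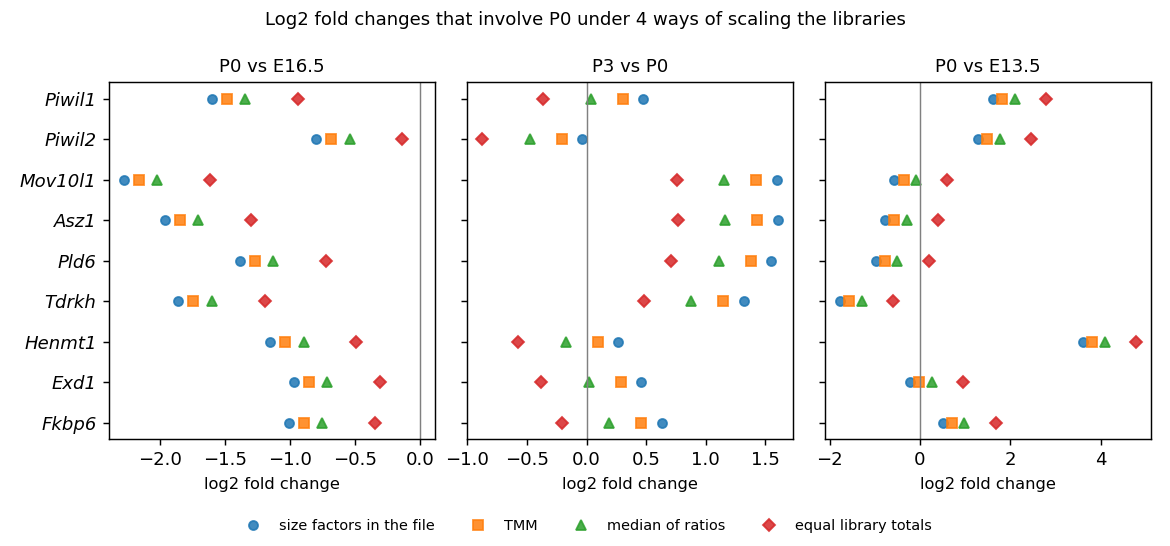
Log2 fold changes (horizontal axes) of the 9 genes in the comparisons that involve P0 with the size factors of the deposited table, TMM factors, median-of-ratios factors and equal library totals (symbols). For each gene the 4 points are shifted by nearly the same amount; at P3 against P0 those of Mov10l1, Asz1, Pld6 and Tdrkh all stay above 0, while with equal totals the other 5 lie below 0.

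Ratios of 2 members within a library need no size factor. The pairs were chosen after their values were seen, so the ratios restate the differences above on another scale and carry no test. The ratio of Piwil2 to Mov10l1 counts was 0.897, 1.16 and 1.04 at E13.5, E16.5 and P3, but 3.24 at P0. On the log2 scale it was 1.70 ± 0.102 at P0 (SD, n = 3), with libraries at 1.59 to 1.79, against at most 0.25 in the other 9. The ratio of Piwil2 to Tdrkh was, on that scale, -0.19 ± 0.162 and 1.81 ± 0.0684 at the embryonic stages and 2.87 ± 0.0664 and 1.51 ± 0.254 at P0 and P3. That of Henmt1 to Asz1 was -5.78 ± 0.0418, -2.20 ± 0.0445, -1.39 ± 0.102 and -2.72 ± 0.166 in the same order. In each of the 3 ratios the P0 libraries lay above all others.

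**Figure D4:**
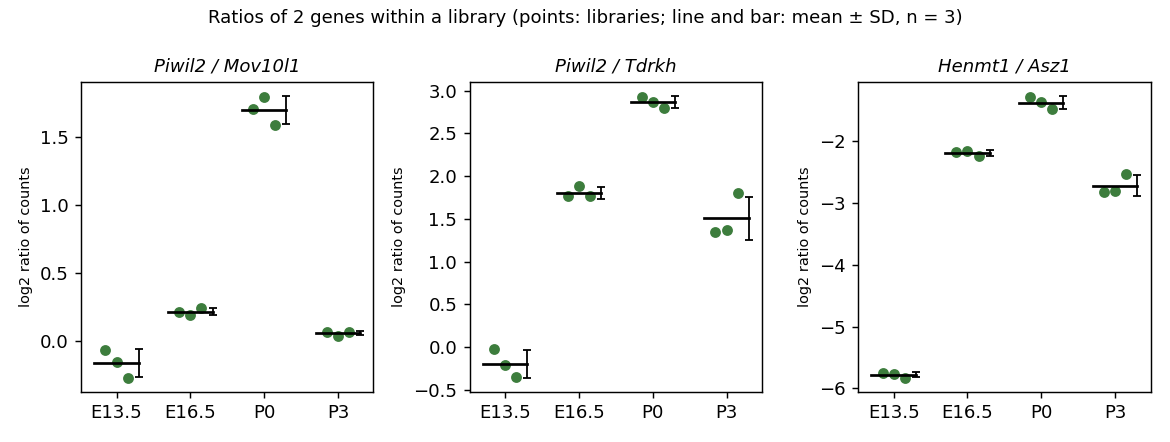
Log2 ratio of the counts of 2 members in the same library (vertical axes) by stage (horizontal axes) for Piwil2 to Mov10l1, Piwil2 to Tdrkh and Henmt1 to Asz1. Points are libraries, lines means and bars SDs; the 3 P0 libraries are the highest in each panel, at 1.59 to 1.79 for Piwil2 to Mov10l1.

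Ratios to Ddx4, the germ cell RNA helicase whose protein the reporter follows, need no size factor either. The log2 ratio of Piwil2 to Ddx4 was -2.84 ± 0.0799 at E13.5 and -0.51 ± 0.0132 at E16.5 (SD, n = 3). It was -0.21 ± 0.0979 in P0 and -1.34 ± 0.138 in P3 libraries. That of Mov10l1 to Ddx4 was -2.68 ± 0.0222, -0.72 ± 0.0129, -1.90 ± 0.0784 and -1.40 ± 0.131 in the same order. Relative to Ddx4, the mean of Piwil2 was thus highest at P0, whereas that of Mov10l1 was below its E16.5 and P3 means there. Ddx4 itself fell by 1.10 on the log2 scale from E16.5 to P0 and rose by 1.09 to P3 (limma adjusted p 2.01e-09 and 9.68e-10).

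A list of 21 other genes of the pathway was described in the same way. Between E13.5 and E16.5, 14 rose and 6 fell, with Mybl1 not called. Between E16.5 and P0, 19 fell and 2 rose, and between P0 and P3, 14 rose and 6 fell. The shares of all genes called higher and lower were 45.5% and 34.6%, 27.6% and 33.4%, and 40.1% and 36.4%. With equal totals the balance at P3 against P0 was reversed, with 4 higher and 14 lower. Their median log2 fold changes were 1.22, -1.13 and 0.50, against 0.31, -0.01 and 0.05 over all genes. Of the 21, 13 had their highest mean at E16.5. The genes that rose at P0 were Tdrd6 and Mybl1, and the rise of Mybl1 (0.74, limma adjusted p 0.0194) was lost without E16.5 library 1 or P0 library 3 (0.62 and 0.61, adjusted p 0.074 and 0.0931).

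Partners of the 9 genes differed in how closely they followed them. Pnldc1, the trimming enzyme bound by TDRKH, rose by 1.03 to E16.5, fell by 2.08 to P0 and rose by 1.37 to P3 on the log2 scale. Gpat2, another mitochondrial piRNA factor, changed by 1.82, -1.16 and 0.61, and Tdrd1, a Tudor protein that binds PIWIL2, by 2.81, -1.21 and 0.25. Tdrd12, the partner of EXD1, fell at E16.5 by 0.65 and at P0 by 1.11 and rose at P3 by 1.86. Hsp90aa1, an HSP90 gene, was 2.00-fold lower at E16.5, fell by 1.06 to P0 and then rose by 0.52; 47.5% of its 50-base words occur in other genes, so its level is uncertain. Prmt5 and Wdr77, which encode the methyltransferase complex that modifies PIWI arginines, fell at E16.5 by 0.53 and 2.22. They fell again to P0, by 1.40 and 0.77, and then rose to P3 by 0.44 and 2.36. The limma adjusted p of these values was at most 0.0107, and with equal totals the changes of Gpat2 (-0.23), Tdrd1 (-0.60), Hsp90aa1 (-0.32) and Prmt5 (-0.40) at P3 against P0 were reversed. That of Tdrd1 was also reversed with median-of-ratios factors (-0.20) and lost without P3 library 4 (0.19, adjusted p 0.054), and the falls of Tdrd12 (-0.14) and Prmt5 (-0.03) at E16.5 were lost with equal totals. Median-of-ratios factors also lost the P3 against P0 changes of Gpat2 (0.17, adjusted p 0.0602), Hsp90aa1 (0.08, adjusted p 0.271) and Prmt5 (0.001, adjusted p 0.994). The fall of Wdr77 to P0 was lost with equal totals (-0.11, limma adjusted p 0.108). Of the exon bases of Wdr77, 31.5% are shared with other genes, so its level is uncertain too.

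Among other genes of the pathway, Piwil4 rose 64.1-fold to E16.5, against 9.48-fold for Piwil1 and 4.24-fold for Piwil2. It fell by 2.55 to P0 and by 0.80 to P3 on the log2 scale (limma, largest adjusted p 3.88e-06). At E16.5 its level per kb was 6114 ± 782, against 6607 ± 584 for Piwil2 (SD, n = 3). Mael, a germ granule protein gene, changed by 2.41, -0.76 and -0.17, with an adjusted p of 0.0313 for the last, which was lost without P0 library 1, P0 library 3 or P3 library 4 (adjusted p 0.0725 to 0.12). The fall of Mael at P0 was -0.10 with equal totals (adjusted p 0.103). Mybl1, which encodes the A-MYB factor known for driving pathway genes in meiosis, held 34.7 ± 10.35 to 131.2 ± 22.6 normalized counts as stage means, highest at P0. It fell by 1.91 from P0 to P3 (adjusted p 3.73e-06).

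The likeness of stage profiles was described by Pearson's r of log2(normalized count + 1) over the 12 libraries. These libraries form 4 stages of 3, so r mostly reflects 4 stage means, and it carries no test. Piwil1 and Piwil2 had an r of 0.98, Piwil2 and Henmt1 0.96, and Mov10l1 and Asz1 0.97, whereas Piwil2 and Tdrkh had -0.09 and Tdrkh and Henmt1 -0.22. Of 13675 candidate genes, those most like Piwil2 were Ppp1r13b and Nedd4l (both r 0.996). Those most like Henmt1 were Tex15 (0.997), itself a gene of the pathway, and Prdm16 (0.996), and those most like Piwil1 were Tdrd1 and Morc1 (both 0.990). Mov10l1 was most like Flot2 (0.993) and Gss (0.992), Asz1 like Ywhab (0.994) and Bloc1s5 (0.990), and Pld6 like Tubg1 and Mrgbp (both 0.987). Tdrkh was most like Xrcc6 and Sec11a (both 0.994), Exd1 like Ubap1 (0.983) and Tbc1d15 (0.981), and Fkbp6 like Ehd1 (0.994) and Plbd2 (0.991).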

How the data were processed

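Per the labels' protocols, SMART-seq v4 and TruSeq kits were used for the RNA of 12 gonocyte samples, 3 per stage. The submitters' processing notes name bcl2fastq 2.20, cutadapt 1.18, HISAT2 2.1.0, featureCounts 1.5.2 and DESeq2 1.26.0, and the builds mm10 and GRCm38. The authors deposited 1 table whose signal is, for each gene, its reads over the library's size factor (RLE, as the table is labelled). Despite that label, the deposited factors were not those that the median-of-ratios method gave here for the 12 libraries. As multiples of the deposited factors, the latter were 0.8155 (P0), 0.9749 (E16.5), 1.106 (P3) and 1.137 (E13.5). The reason for this gap was not tested. Strand setting, annotation release and treatment of multi-mapping reads are not given in the sources used here. Divided by the smallest value above 0 of its library, every value came out whole (tolerance 0.001, 100% of values), which gave back the reads.

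Columns were assigned to stages only, because their numbers 1, 3 and 4 are not the replicate numbers of the titles. Symbols matched 55141 of 55487 identifiers. Positions, exon lengths and promoters came from GENCODE M21 (GRCm38) and RefSeq (GRCm38.p6). Log2(normalized count + 1) went into limma 3.58.1 (R 4.3.3; trend, all stages in 1 fit, 8 residual degrees of freedom) for genes that reached 10 normalized counts in 3 or more libraries. Benjamini-Hochberg adjustment ran over all 22384 genes in each of 6 comparisons, with a threshold of 0.05. edgeR 4.0.16 and DESeq2 1.42.0 on recovered reads, other scalings, pseudocounts and filters, and leaving out each library were alternatives. The methods were tested on simulated data. Python 3.11.15, numpy 2.4.6, pandas 2.3.3 and matplotlib 3.10.9 served for the rest. Libraries of a stage differed by more than sampling noise (chi-square of 5.30 to 18.5 per gene). The read numbers do not give the counting error of molecules, since amplified reads carry no molecular identifiers.

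The members, lists, alternatives and naming rule (the 9 members, 21 listed pathway genes, and for each member the 2 genes of highest r with a mean of at least 100 in their highest stage and no predicted-gene or clone name) were chosen with earlier results of these data known.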

Additional observations from a re-analysis of the deposited data

How the results depend on the processing

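The numbers in the column heads did not pair the libraries: deviations of same-numbered libraries from their stage means correlated at -0.036 to 0.042 in 18 pairs, and 5 of the 18 pairs had a higher correlation than pairs of unlike numbers. A fit with this number as a replicate block called 8, 9 and 8 members over the 3 consecutive comparisons, as without it. Of 54 log2 fold changes of the members, 40 kept their direction and side of the threshold under every alternative, and edgeR, DESeq2 and the pseudocounts of 0.1 and 10 changed none.

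Most changes came from the scaling of the libraries. At P3 against P0, median-of-ratios factors called 5 members higher and 1 lower, TMM factors 1 lower, and equal totals 4 higher and 5 lower; equal totals reversed Piwil1 (-0.36), Henmt1 (-0.57), Exd1 (-0.38) and Fkbp6 (-0.21), and median-of-ratios factors Henmt1 (-0.17). At P0 against E13.5, median-of-ratios factors called 3 members lower and equal totals 8 higher and 1 lower; equal totals reversed Mov10l1 (0.60), Asz1 (0.39), Pld6 (0.19) and Exd1 (0.95), and median-of-ratios factors Exd1 (0.26). Equal totals called 0 members lower at P3 against E13.5. The difference of Pld6 between P3 and E16.5, not called, was -0.019 with median-of-ratios factors and -0.014 with equal totals. That of Piwil2 between P3 and P0, not called, was 0.015 without P0 library 3 and 0.010 without P3 library 1, within -0.120 to 0.015 over the fits that left out 1 library.

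With a log2 fold change of at least 1 also required, 4 members were called at P3 against P0 (4 higher), 4 at P0 against E13.5 (1 lower), 1 at P3 against E16.5 (1 lower), and 5 at P3 against E13.5 (5 higher, 0 lower). Of the 21 other pathway genes that fold left 7 at P3 against P0 (4 higher, 3 lower), 9 at P3 against E16.5 (7 lower), 1 higher at P0 against E16.5, 2 lower at E16.5 against E13.5 and 4 lower at P3 against E13.5. For these genes, median-of-ratios factors called 7 higher at P3 against P0, equal totals 4 higher and 14 lower there and 2 lower at E16.5 against E13.5, and a mean of at least 100 left 1 higher at P0 against E16.5. Equal totals reversed Tdrd1 (-0.60), Gpat2 (-0.23), Prmt5 (-0.40) and Hsp90aa1 (-0.32) at P3 against P0 and Ddx4 at E16.5 against E13.5 (0.26), and median-of-ratios factors Tdrd1 (-0.195). The cause was not tested.

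Leaving out 1 library at a time gave 8 to 8 members called higher at E16.5 against E13.5 and 9 to 9 lower at P0 against E16.5. It gave 7 to 8 higher at P3 against P0, 4 to 5 lower at P0 against E13.5, 7 to 8 higher at P3 against E13.5 and 0 to 1 higher at P3 against E16.5, the 1 being Pld6 without E16.5 library 3. Of the other pathway genes, 1 to 2 were called higher at P0 against E16.5. Where a stage is left with 2 libraries, the spread is pooled over all stages. The fewest reads of any member in a library were 120 (Henmt1 at E13.5).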
